A study of Mus musculus with 16 samples.

Results

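The genes described here are 10 genes of signalling by ON bipolar cells, the retinal interneurons that depolarise when light increases. They are Grm6, Nyx, Lrit3, Gpr179, Rgs7, Rgs11, Trpm1, Gng13, Pcp2 and Prkca, chosen by name for their part in the signalling cascade that runs from the receptor mGluR6 to the channel TRPM1 or as markers of rod bipolar cells. All 10 were found by symbol among the 54532 genes of the table for uninjected retinas and by gene identifier among the 48440 genes of the table for injected retinas. All 10 also passed the filters on low values, so none was left out of a test. RNA was sequenced from 16 whole mouse retinas.

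Uninjected retinas came from wildtype C57BL6/J mice at 18 months (n = 4), from mice at 12 months whose Elovl2, a gene for a fatty acid elongase, carries a substitution (n = 3) and from wildtype mice at 12 months (n = 3). The series design gives the substitution as C234W, whereas the genotype labels give C34W. Injected retinas came from wildtype mice at 18 months, 5 days after 0.36 nmol of the polyunsaturated fatty acid 24:5 was injected into the vitreous of 1 eye (n = 3) and vehicle into the other eye (n = 3). The labels tie no injected retina to an animal and do not state that libraries come from separate animals. The p-values therefore measure the spread between these libraries, which may include technical spread. Libraries of uninjected retinas held 12810600 to 30519400 reads and those of injected retinas 22066700 to 25609200 counts.

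In darkness photoreceptors release glutamate onto the dendrites of ON bipolar cells, where mGluR6 holds the cation channel TRPM1 closed through the G protein Go. Light lowers glutamate release, Go is switched off with the help of RGS proteins, and the channel opens. In humans, loss of GRM6, TRPM1, NYX, GPR179 or LRIT3 causes complete congenital stationary night blindness, in which the ON response is missing.

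The start regions of the genes for both ends of the cascade are shown here because the results are read from Grm6 and Trpm1 outward. They are RefSeq promoter windows of 300 bases on GRCm38.p6, both on the plus strand and read from 5′ to 3′. The Grm6 window lies at chr11:50850435-50850734 and 1 of the Trpm1 windows at chr7:64153585-64153884. Capitals mark TAATCC, the letters bound by the retinal factors OTX2 and CRX, where they occur on either strand.
Grm6 promoter: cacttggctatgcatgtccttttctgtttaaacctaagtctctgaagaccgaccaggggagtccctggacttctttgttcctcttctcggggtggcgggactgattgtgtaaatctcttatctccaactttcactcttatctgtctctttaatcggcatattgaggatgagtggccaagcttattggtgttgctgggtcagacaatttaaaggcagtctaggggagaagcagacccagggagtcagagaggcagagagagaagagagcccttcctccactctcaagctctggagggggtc
Trpm1 promoter: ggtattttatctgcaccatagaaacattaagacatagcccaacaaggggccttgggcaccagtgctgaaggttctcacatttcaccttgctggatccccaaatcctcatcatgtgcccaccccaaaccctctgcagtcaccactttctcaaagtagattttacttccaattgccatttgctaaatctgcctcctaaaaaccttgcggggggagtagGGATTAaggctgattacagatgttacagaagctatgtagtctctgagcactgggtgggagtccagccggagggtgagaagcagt
TAATCC was searched on both strands of 14 such windows belonging to 9 of the 10 genes. It was found in 1 window, the Trpm1 window shown above, where it reads GGATTA and its first base lies at -34 from the annotated start. The other Trpm1 window, at chr7:64185209-64185508, held 0 matches, and which start the retina uses was not tested. Among all 32851 promoter windows of this length in the RefSeq table, 7.06% held these letters. The E-box letters CANNTG were found in 14 of the 14 windows, against 72.3% of all windows. Several of these windows overlap each other, and a match of letters is not a binding site.

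Levels in uninjected retinas are given as FPKM, reads scaled to gene length and library size. The length used is that of all annotated exons of a gene, so the order of genes is approximate. Pcp2, a regulator of Go known from Purkinje cells and rod bipolar cells, had the highest mean level at 36.6 ± 5.18 FPKM (SD, n = 10 libraries). Prkca, the protein kinase C alpha gene used as the classical marker of rod bipolar cells, followed at 33.0 ± 4.63 FPKM. Gng13, a G protein gamma subunit, averaged 31.6 ± 7.15 FPKM, and the receptor gene Grm6 24.6 ± 2.66 FPKM.

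The gene for LRIT3, a leucine-rich repeat protein that acts across the photoreceptor synapse, averaged 20.46 ± 3.77 FPKM. Trpm1, the channel gene, averaged 18.2 ± 2.84 FPKM. Rgs11 averaged 15.5 ± 1.56 FPKM and Gpr179, the orphan receptor that holds the RGS complexes in place, 14.6 ± 2.71 FPKM. Rgs7 averaged 7.31 ± 0.749 FPKM and Nyx, the gene for nyctalopin, 5.81 ± 0.722 FPKM (SD, n = 10 libraries for each). Along this order the ranges of neighbouring genes overlapped over the 10 libraries, except between Gpr179 (10.5 to 19.2 FPKM) and Rgs7 (5.88 to 8.34 FPKM). Between 317 reads (Gng13) and 8843 reads (Prkca) stood behind a single value.

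Whole retina RNA holds all retinal cell types, so these levels do not show which cells the RNA came from. Fewer ON bipolar cells and less RNA per cell cannot be told apart in them. The summed level of 10 rod genes lay between 13659 and 15648 FPKM in the uninjected libraries. Malat1, a nuclear RNA, set 5 of the 10 uninjected libraries apart, at 229 to 377 FPKM against 85.7 to 150.0 FPKM in the other 5. The high libraries were replicates 2 and 3 of wildtype at 18 months, replicate 1 of the mutant and replicates 1 and 2 of wildtype at 12 months, so every group held libraries of both kinds.

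The age comparison set wildtype retinas at 18 months against wildtype retinas at 12 months, and the genotype comparison set mutant retinas at 12 months against the same 12-month wildtype retinas. Of the 10 genes, 0 passed an adjusted p of 0.05 in either comparison (limma, adjusted over 13786 genes). The background was the same, since 0% of all genes passed for age and 0% for genotype. Point estimates were small throughout, between -0.06 and 0.32 on the log2 scale for age and between -0.08 and 0.24 for genotype. Fold changes in this table refer to log2(FPKM + 1), a scale that understates changes of low genes.

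At the head of the cascade, Grm6 (ENSMUSG00000000617, chromosome 11, 50850685 to 50866208, mm10) had 21.99, 26.8, 26.7 and 24.1 FPKM in wildtype retinas at 18 months. It had 27.7, 21.0 and 25.2 FPKM in mutant retinas, and 23.9, 27.98 and 21.1 FPKM in wildtype retinas at 12 months. The 3 groups overlapped over nearly their whole range. The log2 fold change was 0.04 for age (SE 0.120, 95% interval -0.23 to 0.31) and 0.02 for genotype (SE 0.129, interval -0.27 to 0.31). On the linear scale the age interval ran from 0.852-fold to 1.24-fold.

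Nyx (ENSMUSG00000051228, chromosome X, 13466110 to 13489313) encodes a leucine-rich repeat protein that is needed to place TRPM1 at the dendritic tips. It had 5.91, 6.48, 6.21 and 7.09 FPKM in wildtype retinas at 18 months, 5.04, 5.56 and 6.31 FPKM in mutant retinas, and 5.55, 5.01 and 4.91 FPKM in wildtype retinas at 12 months. Every 18-month wildtype library lay above every 12-month wildtype library, while the mutant libraries spanned both. Its log2 fold change for age was 0.27 (SE 0.0848, interval 0.08 to 0.46), with an unadjusted p of 0.0102 and a limma adjusted p of 0.9999. This was the only unadjusted p under 0.05 among the 10 genes for age, against 3.65% of all genes, and 4.17% of all genes had groups that did not overlap.

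The other leucine-rich repeat gene, Lrit3, had 15.1, 24.6, 23.1 and 18.6 FPKM in wildtype retinas at 18 months. The mutant retinas had 24.0, 17.7 and 17.9 FPKM, and wildtype retinas at 12 months had 19.7, 26.4 and 17.5 FPKM. Each group held high and low libraries, and the log2 fold change was -0.06 for age (SE 0.189) and -0.08 for genotype (SE 0.202). For Gpr179 the values were 11.6, 16.4, 15.8 and 13.9 FPKM in wildtype retinas at 18 months, 17.8, 12.6 and 13.8 FPKM in mutant retinas, and 14.5, 19.2 and 10.5 FPKM in wildtype retinas at 12 months. The 12-month wildtype group held both the highest and the lowest of the 10 libraries for this gene, and the intervals for Gpr179 reached from -0.43 to 0.42 for age and from -0.43 to 0.48 for genotype.

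The genes for the RGS proteins, which speed the switching off of Go, are Rgs7 (ENSMUSG00000026527, chromosome 1, 175059087 to 175492500) and Rgs11. Rgs7 had 6.84, 7.37, 7.71 and 7.79 FPKM in wildtype retinas at 18 months, 8.34, 7.60 and 7.76 FPKM in mutant retinas, and 6.30, 7.49 and 5.88 FPKM in wildtype retinas at 12 months. Every mutant library lay above every 12-month wildtype library, the nearest by 7.60 against 7.49 FPKM. The log2 fold change for genotype was 0.24 (SE 0.0877, interval 0.04 to 0.44, unadjusted p = 0.0210, limma adjusted p = 0.9998). Among all genes, 2.19% had an unadjusted p under 0.05 for genotype and 5.97% had groups that did not overlap, while among the 10 genes Rgs7 was the 1 that met either criterion. For age its log2 fold change was 0.16 (SE 0.0820) with groups that overlapped.

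Rgs11 had 16.0, 15.2, 15.5 and 15.1 FPKM in wildtype retinas at 18 months, 18.7, 13.9 and 16.2 FPKM in mutant retinas, and 13.8, 16.7 and 13.5 FPKM in wildtype retinas at 12 months. The 18-month wildtype libraries lay close together within the range of both other groups. Log2 fold changes of Rgs11 were 0.08 for age (SE 0.1004) and 0.13 for genotype (SE 0.107).

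At the end of the cascade, Trpm1 (ENSMUSG00000030523, chromosome 7, 64153835 to 64269775) had 15.3, 18.3, 21.1 and 19.2 FPKM in wildtype retinas at 18 months. It had 22.3, 16.9 and 18.8 FPKM in mutant retinas, and 13.99, 21.0 and 15.0 FPKM in wildtype retinas at 12 months. In the 12-month wildtype group 1 library was among the highest and the other 2 were the lowest of all 10. Its log2 fold change was 0.15 for age (SE 0.152, interval -0.19 to 0.49) and 0.21 for genotype (SE 0.163, interval -0.15 to 0.58).

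Gng13 and Pcp2 encode small partners of the G protein. Gng13 had 45.7, 30.6, 33.1 and 31.8 FPKM in wildtype retinas at 18 months, 26.1, 32.7 and 29.7 FPKM in mutant retinas, and 21.7, 24.4 and 40.1 FPKM in wildtype retinas at 12 months. It had the largest age estimate of the 10 genes, 0.32 on the log2 scale, with the widest interval, -0.14 to 0.78. Pcp2 had 42.1, 32.1, 36.3 and 39.6 FPKM in wildtype retinas at 18 months, 35.3, 36.6 and 43.2 FPKM in mutant retinas, and 26.6, 32.5 and 41.1 FPKM in wildtype retinas at 12 months. Its groups overlapped, with log2 fold changes of 0.18 for age (SE 0.146) and 0.21 for genotype (SE 0.156).

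Prkca had 29.7, 35.7, 39.2 and 35.8 FPKM in wildtype retinas at 18 months, 36.0, 30.3 and 30.6 FPKM in mutant retinas, and 25.1, 38.5 and 29.3 FPKM in wildtype retinas at 12 months. The 12-month wildtype libraries alone spanned nearly the whole range. The log2 fold change of Prkca was 0.19 for age (SE 0.143) and 0.08 for genotype (SE 0.152).

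**Figure D1:**
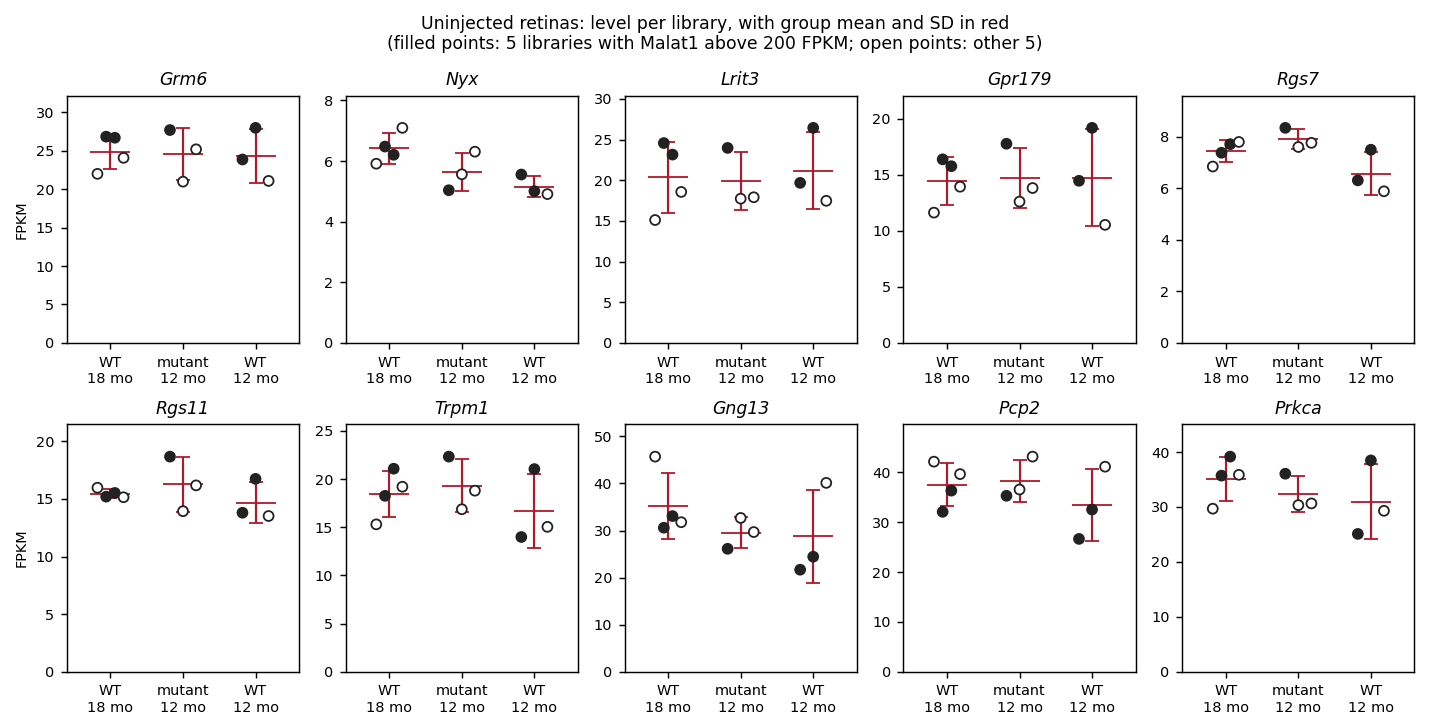
Level in FPKM (vertical axes, starting at 0) of each of the 10 genes in the uninjected libraries, grouped as wildtype at 18 months, mutant at 12 months and wildtype at 12 months, with the group mean and SD in red; filled points are the 5 libraries with Malat1 above 200 FPKM. Nyx is higher in every 18-month than in every 12-month wildtype library, and Rgs7 in every mutant than in every 12-month wildtype library, while the groups of the other genes overlap in both comparisons.

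As a list, 8 of the 10 genes had higher means at 18 than at 12 months (median log2 fold change 0.16), and 9 of the 10 had higher means in mutant than in wildtype retinas (median 0.09). Over all genes tested 49.4% were higher for age and 47.7% for genotype, with medians of -0.00 and -0.01. Both comparisons share the 12-month wildtype libraries. Of these, replicates 1 and 3 were each the lowest of the 10 libraries for 4 genes and below the gene's own median for 8 of 10, whereas replicate 2 was the highest for 3 genes. Without replicate 1 of this group the median was 0.04 for age and 0.05 for genotype, without replicate 3 it was 0.09 and 0.08, and without replicate 2 it was 0.21 in both.

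Replicate 1 of the 12-month wildtype group also had Gfap, a gene of reactive glia, at 13.8 FPKM, against 3.38 to 7.57 FPKM in the other 9 libraries. All 8 genes of the gliosis list were lower for age (median log2 -0.21) and 7 of 8 for genotype (median -0.14), and none passed the adjusted threshold. Their summed level was 44.6 to 54.9 FPKM in wildtype retinas at 18 months, 43.3 to 57.9 FPKM in mutant retinas and 47.5 to 98.8 FPKM in wildtype retinas at 12 months. Among 6 measured genes of the pigment epithelium, a layer next to the retina, 5 were higher for age (median 0.38) and 5 for genotype (median 0.13), again with none past the threshold. Lrat had a log2 fold change of 0.65 for age (SE 0.282) and Rpe65 of 0.60 for genotype (SE 0.379). The summed level of the pigment epithelium list was 60.4 to 173 FPKM in wildtype retinas at 18 months, 92.3 to 99.8 FPKM in mutant retinas and 77.7 to 116 FPKM in wildtype retinas at 12 months. The part of these cells in the values of the 10 genes was not tested.

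Wildtype retinas at 18 months were also set against mutant retinas at 12 months, which asks whether the age and genotype differences differ from each other. Here 5 of the 10 genes were higher and 5 lower, with a median log2 fold change of -0.00, against 53.2% of all genes higher and a median of 0.01. The count of the 10 genes past the adjusted threshold was 0, as for 0% of all genes, and 0 had an unadjusted p under 0.05 or groups that did not overlap, against 2.14% and 4.47% of all genes. Nyx had the smallest p of the 10, with a log2 fold change of 0.16 (SE 0.0848, interval -0.03 to 0.35, unadjusted p = 0.0829, limma adjusted p = 0.99999). Rgs7 had a log2 fold change of -0.08 (SE 0.0820, interval -0.26 to 0.10).

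**Figure D2:**
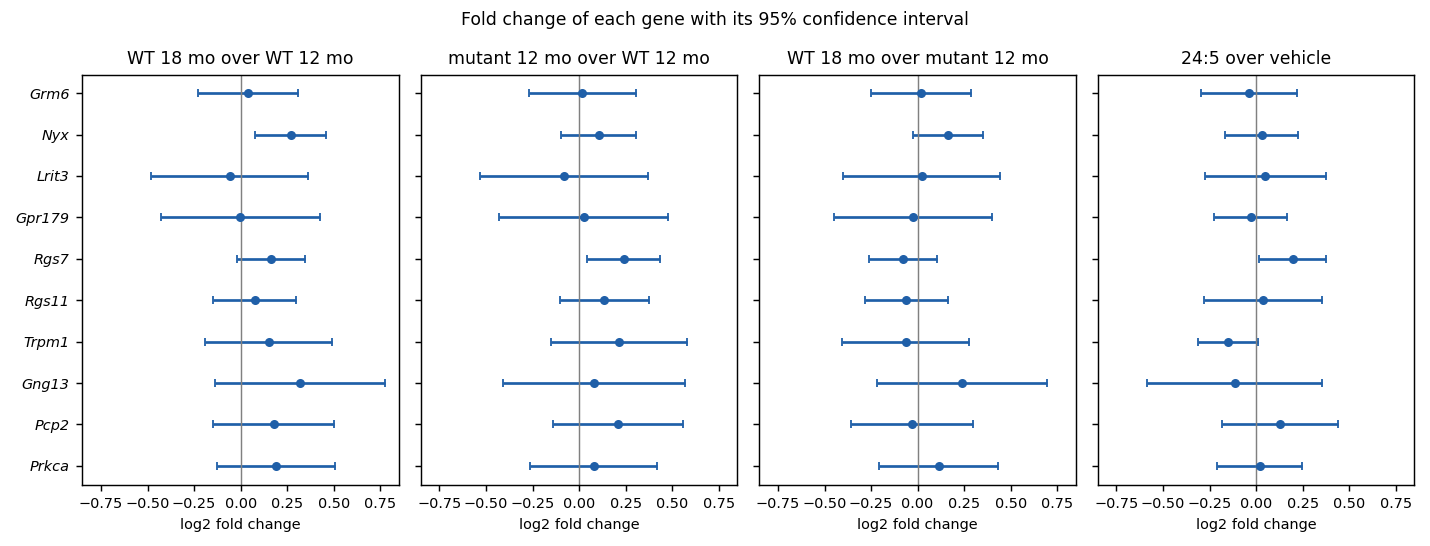
Log2 fold change of each gene (horizontal axes) with its 95% confidence interval in the 4 comparisons, on the log2(FPKM + 1) scale for the first 3 and on the log2 count scale for 24:5 over vehicle. Intervals that leave out 0 are those of Nyx for age, Rgs7 for genotype and Rgs7 for 24:5, and none of these passed the adjusted threshold.

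The split of libraries by Malat1 moved with the levels of several of the genes. Lrit3 lay at 19.7 to 26.4 FPKM in the 5 libraries with high Malat1, against 15.1 to 18.6 FPKM in the other 5, and Gpr179 at 14.5 to 19.2 FPKM against 10.5 to 13.9 FPKM. Pcp2 went the other way without overlap, at 26.6 to 36.3 FPKM against 36.6 to 43.2 FPKM. These were the 3 of the 10 genes without overlap between the library sets, where 22.5% of all genes tested did not overlap either. The log2 ratio of medians (FPKM + 1), high over other libraries, was 0.41 for Lrit3, 0.35 for Gpr179, 0.30 for Trpm1, 0.28 for Grm6 and 0.24 for Prkca. It was -0.31 for Gng13 and -0.33 for Pcp2, while Rgs11, Rgs7 and Nyx lay between -0.08 and 0.03.

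Gng13 and Pcp2 have the shortest gene lengths of the 10, 773 and 1828 bases, and Trpm1 the longest at 14746 bases. Over all genes tested the median log2 ratio was -0.09 for genes under 2000 bases, -0.07 for 2000 to 4000 bases, 0.04 for 4000 to 8000 bases and 0.15 for genes of 8000 bases and over. Within a bin single genes spread widely, with quartiles of -0.26 and 0.22 under 2000 bases and of 0.05 and 0.27 at 8000 bases and over. Lrit3, Gpr179, Trpm1 and Grm6 lay above the upper quartile of their own length bin. Gng13, Pcp2 and Nyx lay below the lower quartile of theirs, Nyx narrowly at -0.076 against -0.068. By definition, as many genes of a bin lie outside its quartiles as between them. The libraries were split after their values were seen, so these ratios are a description without a test.

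With the Malat1 split as a term in the fit, Nyx had a log2 fold change of 0.26 for age and Rgs7 of 0.275 for genotype, and the count of called genes among the 10 was 0. The medians of the 10 genes with this term were 0.15 for age, 0.12 for genotype and -0.035 for wildtype at 18 months against the mutant. Lrit3 turned from lower to higher for age (0.012) and for genotype (0.062) with this term, and Gpr179 was higher for age (0.069). What sets the libraries apart was not tested.

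**Figure D3:**
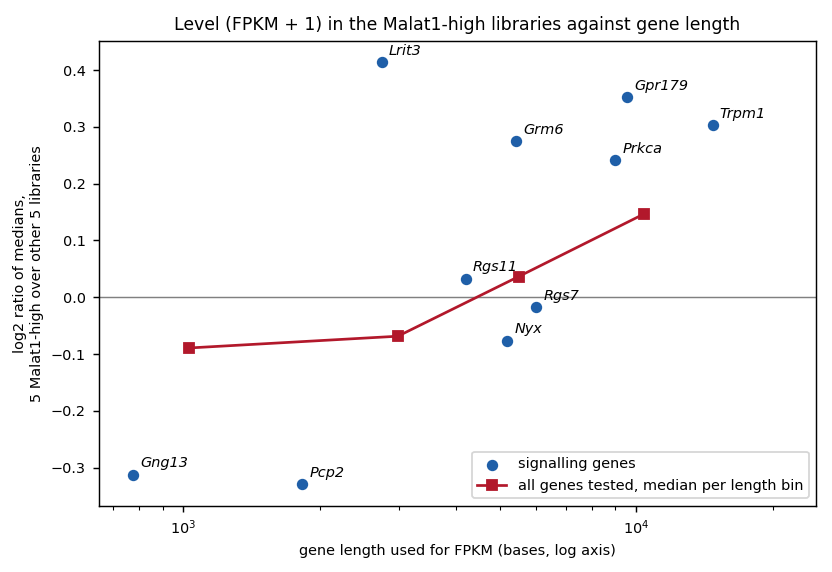
Log2 ratio of median FPKM + 1 in the 5 libraries with high Malat1 over the other 5 (vertical axis) against gene length in bases (log axis), for the 10 genes in blue and as the median of all genes tested in 4 length bins in red. Lrit3, Gpr179, Trpm1, Grm6 and Prkca lie above 0.2, and Gng13 and Pcp2 below -0.3.

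The genes around the cascade were taken from fixed lists, and 0 of them passed the adjusted threshold for age or genotype. Of 10 genes listed as other parts of the cascade, 8 had higher means in older retinas (median log2 0.03). In the mutant 6 had log2 estimates above 0 (median 0.02), among them Lrit1, whose mean FPKM was slightly lower (86.8 against 87.3 FPKM). The cells that the RNA of these genes came from were not tested. The smallest p for age in this list was that of Ric8b, a chaperone of G protein alpha subunits, with a mean of 44.0 ± 1.96 FPKM over the 4 libraries of 18-month and 38.5 ± 3.17 FPKM over the 3 of 12-month wildtype retinas (± SD). The Ric8b estimate was 0.19 on the log2 scale (SE 0.0700, limma adjusted p = 0.9999). The gene for the Go alpha subunit, Gnao1, had a genotype estimate of 0.10 (SE 0.0874), at 35.2 ± 1.64 FPKM in mutant and 32.8 ± 3.21 FPKM in wildtype retinas (SD, n = 3 each).

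Among 8 genes listed as synaptic partners in photoreceptors, 3 were higher for age (median -0.03) and 4 for genotype (median 0.02). Slc17a7, the gene for a vesicular glutamate transporter, had the smallest p of this list in both comparisons. The cells its RNA came from were not tested. Its mean was 307 ± 3.91 FPKM over 4 wildtype retinas of 18 months, 295 ± 6.89 FPKM over 3 mutant retinas and 266 ± 6.397 FPKM over 3 wildtype retinas of 12 months (± SD). Its groups did not overlap in either comparison, with log2 fold changes of 0.21 for age (SE 0.0681) and 0.15 for genotype (SE 0.0728), and it did not pass the adjusted threshold.

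Other genes of rod bipolar identity were higher in 8 of 8 cases for age (median 0.20) and in 6 of 8 for genotype (median 0.15). The smallest p for age was that of Gabrr1, a subunit of the GABA receptor on rod bipolar axons, with a mean of 53.8 ± 3.36 FPKM over the 4 older and 42.9 ± 10.4 FPKM over the 3 younger wildtype libraries (± SD). Its log2 fold change was 0.35 (SE 0.149, unadjusted p = 0.0431, limma adjusted p = 0.9999). Car8 had the smallest p of this list for genotype, with a log2 fold change of 0.25 (SE 0.187).

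Bipolar transcription factors were higher in 9 of 9 cases for age (median 0.10) and in 7 of 9 for genotype (median 0.16). Genes of cone and OFF bipolar cells were higher in 7 of 9 cases for age (median 0.10) and in 8 of 9 for genotype (median 0.11). Tacr3, a receptor gene of OFF bipolar cells, had estimates of 0.64 in both comparisons (SE 0.358 for age and 0.382 for genotype), and its level in the shared 12-month wildtype group was 6.31 ± 3.92 FPKM (SD, n = 3). These list counts use the same 12-month wildtype libraries as the 10 genes and are therefore not separate observations of the direction.

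**Figure D4:**
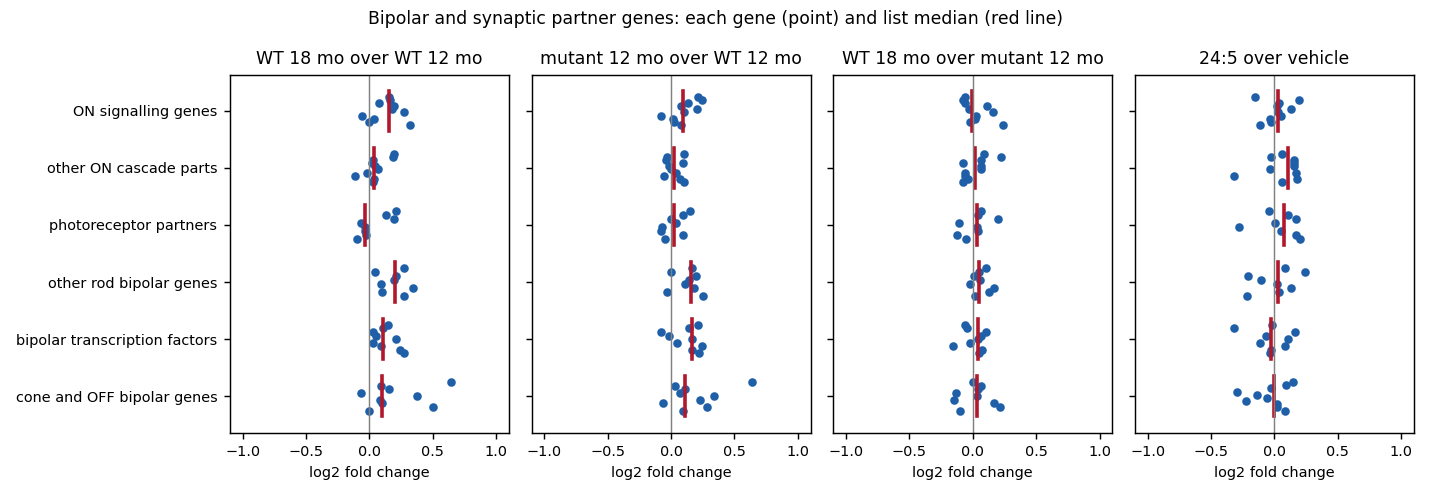
Log2 fold change (horizontal axes) of every measured gene in 6 fixed lists, 1 point per gene with the list median as a red line, in the 4 comparisons. For age and genotype the medians of the 10 signalling genes and the other bipolar lists lie between 0.09 and 0.20, those of the other cascade parts and the photoreceptor partners between -0.03 and 0.03, and for 24:5 over vehicle all 6 medians lie between -0.03 and 0.11.

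The supplementation comparison set retinas given 24:5 against vehicle retinas, tested on raw counts with edgeR over 17466 genes. Levels here are TMM-normalised CPM, which corrects counts for library size and composition but not for gene length. Of the 10 genes 0 passed the adjusted threshold, against 0.0115% of all genes. As a list, 6 of the 10 were higher with 24:5 and 4 lower, with a median log2 fold change of 0.02, against 50.8% of all genes higher and a median of 0.00.

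Rgs7 had 42.0, 45.7 and 48.8 CPM in 24:5 retinas, against 39.8, 39.1 and 40.2 CPM in vehicle retinas. All 3 supplemented libraries lay above all 3 vehicle libraries. The log2 fold change was 0.20 (SE 0.0779, interval 0.02 to 0.38, unadjusted p = 0.0354, edgeR adjusted p = 0.686). Among all genes 6.61% had an unadjusted p under 0.05 and 11.6% had groups that did not overlap, while Rgs7 was the 1 of the 10 genes that met either criterion.

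Trpm1 had 309, 333 and 309 CPM in 24:5 retinas, against 370.3, 331 and 355 CPM in vehicle retinas. The highest supplemented library lay just above the lowest vehicle library, so the groups overlapped. Its log2 fold change was -0.15 (SE 0.0707, interval -0.31 to 0.01, unadjusted p = 0.0660, edgeR adjusted p = 0.815).

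The receptor gene Grm6 had 45.0, 38.9 and 38.7 CPM in 24:5 retinas, against 46.0, 43.9 and 36.1 CPM in vehicle retinas, with full overlap and a log2 fold change of -0.04 (SE 0.111). Nyx had 28.1, 31.3 and 30.9 CPM in 24:5 retinas, against 30.2, 27.7 and 30.5 CPM in vehicle retinas. With a log2 fold change of 0.03 (SE 0.0846, interval -0.16 to 0.23), the groups of Nyx overlapped. Lrit3 had 48.8, 59.8 and 68.4 CPM in 24:5 retinas, against 51.8, 53.9 and 65.2 CPM in vehicle retinas (log2 0.05, SE 0.139). Gpr179 had 156.7, 133.9 and 130.5 CPM in 24:5 retinas, against 145, 146 and 138 CPM in vehicle retinas (log2 -0.03, SE 0.0846).

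Rgs11 had 44.3, 40.4 and 32.5 CPM in 24:5 retinas, against 43.8, 35.7 and 34.9 CPM in vehicle retinas (log2 0.04, SE 0.136). For Prkca the values were 292, 253 and 254 CPM in 24:5 retinas, against 245, 298 and 248 CPM in vehicle retinas (log2 0.02, SE 0.0996). In each group 1 library stood near the top of the range and the other 2 near the bottom. Supplemented replicate 1 held the highest value of 4 of the 10 genes, namely Gpr179, Rgs11, Gng13 and Pcp2. Gng13 had 57.7, 34.1 and 36.6 CPM in 24:5 retinas, against 49.2, 45.8 and 44.1 CPM in vehicle retinas (log2 -0.11, SE 0.198). Pcp2 had 95.6, 72.6 and 69.5 CPM in 24:5 retinas, against 77.6, 75.3 and 64.4 CPM in vehicle retinas (log2 0.13, SE 0.134). Without that library the log2 fold change of Gng13 was -0.39 and that of Pcp2 was -0.03, and 3 of the 10 genes were higher with 24:5 (median -0.06).

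Supplemented replicate 1 also stood apart in genes of injury and interferon signalling. Irf9 was at 21.95, 205 and 158 CPM in 24:5 retinas, against 61.4, 56.7 and 228 CPM in vehicle retinas. Gfap was at 49.9, 142 and 115 CPM in 24:5 retinas, against 119, 103 and 160 CPM in vehicle retinas. The gliosis list summed to 391 to 1405 CPM with 24:5 and 962 to 1563 CPM with vehicle. High Irf9 was thus seen in supplemented replicates 2 and 3 and in vehicle replicate 3, across the treatment groups. Rgs7 had a log2 fold change of 0.25 without supplemented replicate 1 and 0.21 without vehicle replicate 3. The part of this difference between libraries in the other values was not tested.

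**Figure D5:**
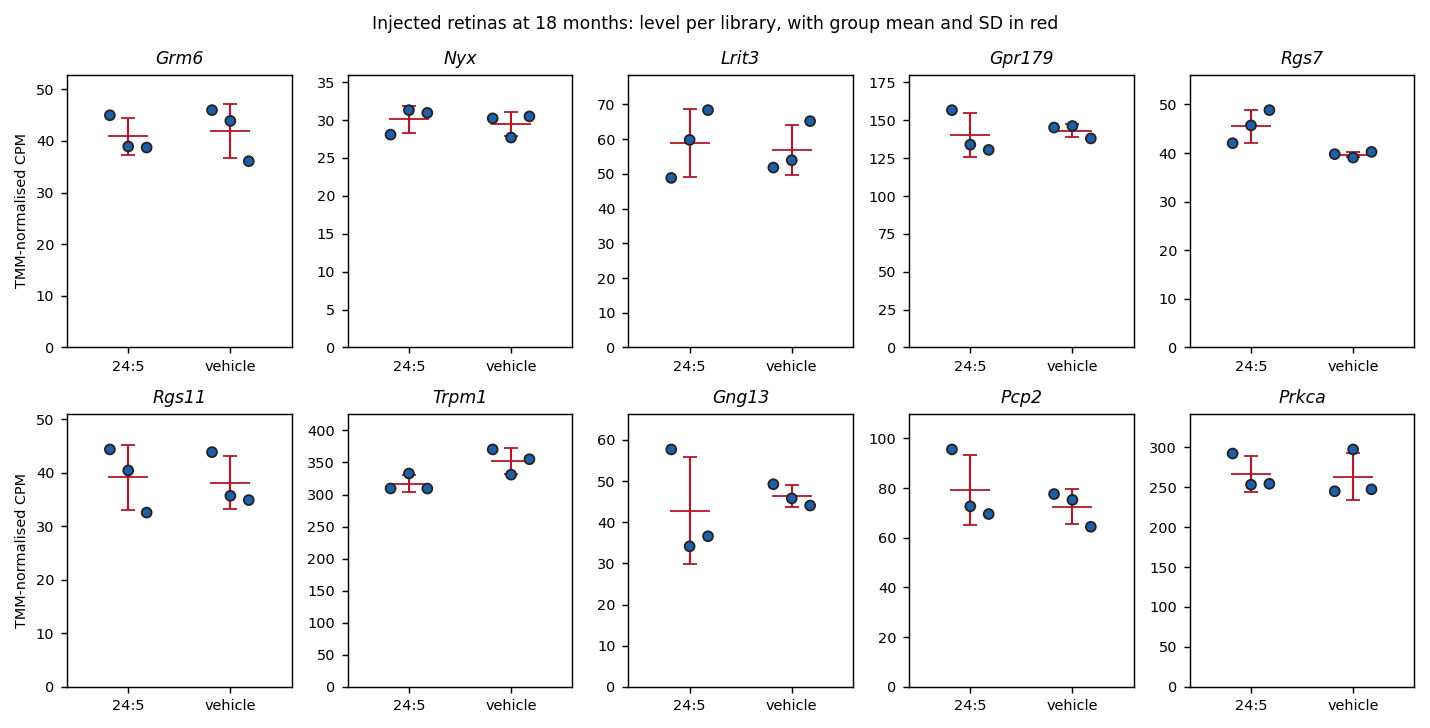
Level in TMM-normalised CPM (vertical axes, starting at 0) of each of the 10 genes in the 6 injected libraries at 18 months, 24:5 left of vehicle, with the group mean and SD in red. Rgs7 is the gene of the 10 whose groups do not overlap, at 42.0 to 48.8 CPM with 24:5 and 39.1 to 40.2 CPM with vehicle.

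Among the fixed lists around the cascade, 0 genes passed the adjusted threshold after 24:5. The median log2 fold change was 0.11 for the other cascade parts (7 of 10 higher), 0.08 for the photoreceptor partners (6 of 8 higher) and 0.03 for other rod bipolar genes (5 of 8 higher). It was -0.03 for bipolar transcription factors (3 of 9 higher) and -0.00 for cone and OFF bipolar genes (5 of 10 higher). Dag1, the dystroglycan gene, is in the photoreceptor partner list, and the cells its RNA came from were not tested. The mean of Dag1 was 48.2 ± 0.906 CPM in 24:5 retinas, against 58.5 ± 1.25 CPM in vehicle retinas (± SD, n = 3 each). Its log2 fold change was -0.28 (SE 0.0629, edgeR adjusted p = 0.278). Slc1a7, a glutamate transporter gene, had a mean of 119 ± 7.37 CPM in 24:5 retinas, against 101 ± 2.65 CPM in vehicle retinas (± SD, n = 3 each), and a log2 fold change of 0.24 (SE 0.0701, edgeR adjusted p = 0.459).

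Markers of other cells also differed between libraries. All 8 microglial genes were lower with 24:5, with summed levels of 73.2 to 121 CPM against 136 to 222 CPM with vehicle. All 10 lens genes had lower means with 24:5, but their sums overlapped, at 61.0 to 726 CPM against 137 to 1932 CPM, and 0 of them had an unadjusted p under 0.05. Rod genes were higher in 9 of 10 cases, with sums of 51001 to 53882 CPM against 42901 to 50153 CPM. Ganglion cell genes were higher in 8 of 8 cases, with sums of 904 to 1018 CPM against 806 to 898 CPM. Mueller glial genes were lower in 5 of 8 cases with overlapping sums, and 3 of them had an unadjusted p under 0.05, among them Apoe (log2 -0.79, SE 0.177) and Kcnj10 (log2 -0.73, SE 0.239). The same edgeR criterion was met by 5 of 8 microglial genes, all lower, and by 4 of 10 rod genes, all higher. It was also met by 1 of 8 ganglion cell genes, which was higher, against 6.61% of all genes in either direction. None of these genes passed the adjusted threshold, and their part in the values of the 10 signalling genes was not tested.

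The order of the 10 genes per length differed between the tables, which were normalised separately. CPM per kilobase was computed with the gene lengths given with the FPKM values. Whether these lengths match the annotation behind the counts of injected retinas was not tested. In injected retinas Gng13 was highest at 57.7 ± 11.1 CPM per kilobase, followed by Pcp2 at 41.5 ± 5.85, Prkca at 29.5 ± 2.61, Trpm1 at 22.7 ± 1.66 and Lrit3 at 21.2 ± 2.83. Gpr179 at 14.9 ± 1.004, Rgs11 at 9.18 ± 1.18, Grm6 at 7.64 ± 0.745, Rgs7 at 7.08 ± 0.642 and Nyx at 5.75 ± 0.295 CPM per kilobase came after them (SD, n = 6 libraries each). The ranges of neighbours overlapped between Gng13 and Pcp2, Trpm1 and Lrit3, Rgs11 and Grm6, and Grm6 and Rgs7, and not between the others. Grm6 was thus the fourth highest gene in uninjected retinas and the third lowest in injected retinas.

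For some of these genes the annotation places another gene on the opposite strand, and the strand setting of the counting is not given, so their levels are uncertain. In GENCODE M21, Gng13 shares 399 exon bases (51.6% of its own) with Chtf18 and Pcp2 shares 941 (51.5%) with Pet100. Grm6 shares 599 bases (11.1%) with the antisense gene Gm12660, Rgs11 shares 138 (3.28%) with Arhgdig, Prkca shares 30 with Apoh and Trpm1 shares 12 with Gm44722. In uninjected retinas Pet100 averaged 4.15 FPKM, Gm12660 2.475, Chtf18 2.37 and Arhgdig 2.31 FPKM. In injected retinas Pet100 averaged 19.4 CPM, Gm12660 1.06, Chtf18 2.74 and Arhgdig 5.42 CPM. CPM is not scaled to length, so these values cannot be set against FPKM. Nyx, Lrit3 and Gpr179 overlap no other annotated gene, and Rgs7 shares no exon base with any.

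Likeness to the 10 genes was measured across libraries, as the root mean square difference between a gene's centred log2 values and the median centred value of the 10. Only other tested genes whose own SD over libraries was at least that of this median profile were compared. Genes that varied less were left out. In uninjected retinas the nearest of 7262 genes were Elfn2 (0.038), Smarcc2 (0.040), Zfp608 (0.048), Cadm3 (0.051) and Mtus2 (0.051), over 10 libraries in which the profile itself had a root mean square of 0.127. Elfn2 is also a member of the photoreceptor partner list. In injected retinas the nearest of 14878 genes were Gulo (0.019), Bcas2 (0.021), Fam173a (0.024), Hpf1 (0.025) and Fam208a (0.025), over 6 libraries with a profile of 0.075.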

How the data were processed

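RNA-seq of 16 whole mouse retinas was analysed from tables deposited by the authors. Uninjected retinas have FPKM values with gene lengths, and injected retinas have raw counts per gene, per the file headers and labels. Per the labels' protocols, libraries were poly(A)-selected and strand-marking. HISAT2 2.2.1, featureCounts 2.0.6, DESeq2 1.42.0 and mm10 are named in the submitters' processing notes with no role or order. For annotation release and strand setting, the sources used here give nothing.

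Multiplied by gene length, 100% of nonzero FPKM values were whole multiples of 1 read (tolerance 0.02). FPKM was tested with limma 3.58.1 (R 4.3.3; trend, robust) on log2(FPKM + 1), over genes with a mean of at least 1 FPKM, with all 3 uninjected groups in 1 fit. The counts went into edgeR 4.0.16 with its robust quasi-likelihood test, TMM and filterByExpr. Two-sided p-values were adjusted by Benjamini-Hochberg over all genes tested, and intervals are 95% intervals of the fits. Procedures were tested on simulated data.

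The 10 genes and the fixed lists were chosen with earlier results of these data known. Beside the 10 genes, at most 2 genes per list and comparison with the smallest p are named, and the 5 genes most like the 10 per table. Malat1, Gfap and Irf9 were picked for per-library levels with their values in view. Some genes that the naming rule takes are left out here. Alternatives were another pseudocount, filter, scaling or tool, a replicate block, and leaving out each library.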

Additional observations from a re-analysis of the deposited data

Results flagged for a closer look

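Gng13 in replicate 1 of the 18-month wildtype retinas, at 45.7 FPKM, stood apart from the other 3 libraries of its group, which lay at 30.6 to 33.1 FPKM. Its gap to the nearest library was 0.836 of the group's range, just above Dixon's 95% critical value of 0.829 for 4 samples. It was the 1 gene flagged of 10 tested in this group, and chance flags about 1 in 20.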

How the results depend on the processing

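Under every alternative 0 of the 10 genes passed the adjusted threshold, and the smallest adjusted p of any of them was 0.389 for age, 0.544 for genotype, 0.930 for wildtype at 18 months against the mutant and 0.213 for 24:5. Of 550 fold changes of single genes under an alternative, 494 kept their direction and 56 reversed. The count over all genes for age was 4 with no filter, 1 with edgeR on recovered reads, 9 with DESeq2 and 1 with the Malat1 split, a term added after seeing the data. It was 4 for genotype with no filter. For wildtype at 18 months against the mutant it was 1 with no filter, 10 with DESeq2, 2 with only the groups compared and 1 with the Malat1 split. For 24:5 it was 248 with DESeq2, 85 with no filter and 88 with the replicate block, and 0 to 105 without 1 library each, against 2 as reported.

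Leaving out 1 library reversed 7 fold changes for age, 9 for genotype, 14 for wildtype at 18 months against the mutant and 15 for 24:5. Under the other alternatives, the reversed values for age were Gpr179 at 0.000 (pseudocount 0.1), 0.010 (replicate block) and 0.069 (Malat1 split), and Lrit3 at 0.012 (Malat1 split). With the Malat1 split Gng13 was -0.054 and Lrit3 0.062 for genotype, and Grm6 was -0.021, Pcp2 0.017 and Lrit3 -0.049 for wildtype at 18 months against the mutant. Without TMM, Nyx was -0.003 and Prkca -0.018 for 24:5. The cause of these changes was not tested.

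Leaving out 1 library each gave, for age, -0.056 to 0.140 for Grm6, -0.207 to 0.197 for Gpr179 and -0.181 to 0.104 for Lrit3. For genotype it gave -0.076 to 0.124 for Grm6, -0.181 to 0.223 for Gpr179, -0.091 to 0.339 for Gng13, -0.057 to 0.242 for Prkca and -0.217 to 0.082 for Lrit3. For wildtype at 18 months against the mutant it gave -0.086 to 0.106 for Grm6, -0.152 to 0.041 for Trpm1, -0.123 to 0.109 for Gpr179, -0.160 to 0.039 for Rgs11, -0.087 to 0.055 for Pcp2 and -0.072 to 0.158 for Lrit3. For 24:5 it gave -0.129 to 0.026 for Grm6, -0.014 to 0.075 for Nyx, -0.119 to 0.022 for Gpr179, -0.068 to 0.153 for Rgs11, -0.394 to 0.021 for Gng13, -0.030 to 0.216 for Pcp2, -0.057 to 0.113 for Prkca and -0.069 to 0.165 for Lrit3. In no comparison did deviations of all same-numbered libraries correlate above 0.1, so numbers were not taken as pairs. For 24:5, where fellow eyes were used, the correlations were 0.398, -0.203 and 0.422, which does not settle whether equal numbers mark fellow eyes. The replicate block changed no call among the 10 genes. Every value of the 10 genes rests on at least 317 reads.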

Other observations

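Grm6 and Trpm1 stood in different proportions in the tables, although levels were set against each other per length within each library. The lengths for injected retinas were also those given with the FPKM values. The ratio of Grm6 to Trpm1 was 1.24 to 1.71 (median 1.33) over the 10 uninjected libraries and 0.276 to 0.395 (median 0.339) over the 6 injected libraries. For Rgs11 the median ratio to Trpm1 was 0.834 in uninjected and 0.396 in injected retinas, while for Gng13 it was 1.62 and 2.45. By median the other genes moved less, as with Prkca (1.84 and 1.30), Nyx (0.333 and 0.251) and Lrit3 (1.09 and 0.922). The ranges of Prkca did not overlap (1.61 to 1.95 uninjected and 1.09 to 1.55 injected). Those of Gng13 did (1.16 to 2.99 and 1.96 to 3.56). The tables were processed separately and no group was measured in both, so the difference cannot be tested and its source was not tested.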
